A study of Mus musculus with 8 samples.

Results

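The enzymes that build glycans and glycosaminoglycans were examined in astrocyte cultures of Spp1 knockout and wild-type mice. They were chosen by gene name, as glycosyltransferases, carbohydrate sulfotransferases, Golgi mannosidases and enzymes of sugar and sulfate donor supply, and 46 of the 3624 genes in the authors' deposited table matched. The cultures came from retinas and optic nerves of mice at postnatal days 1 to 3 and were grown in DMEM/F12 with 10% fetal bovine serum. The 4 knockout samples were Spp1-/- mice of the strain B6.129S6(Cg)-Spp1tm1Blh/J, which carry a targeted mutation of the osteopontin gene, and the 4 wild-type samples were C57BL/6 mice. The groups differ in strain name as well as in genotype, and these cannot be told apart. Whether each sample was its own culture, and whether animals were pooled, is not in the labels, so a p-value reflects the spread between these 8 libraries, and that spread may be technical.

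Glycans are sugar chains that the Golgi apparatus adds to proteins and lipids. N-glycans hang on asparagine and are trimmed and branched, mucin-type O-glycans start with N-acetylgalactosamine on serine or threonine, and both can be extended with lactosamine and capped with sialic acid or fucose. Glycosaminoglycans are long sulfated chains built on a short sugar linker of proteoglycan core proteins, as chondroitin, dermatan and heparan sulfate, while hyaluronan is made at the plasma membrane without a core protein. Astrocytes are a main source of chondroitin sulfate proteoglycans in the central nervous system, and these chains and polysialic acid are known for their effects on axon growth. Osteopontin, the product of Spp1, is a secreted matrix protein that itself carries O-glycans.

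The table holds the authors' comparison of the genotypes only, without values per sample. Its direction was taken from Spp1: the deleted gene stands at -5.90 (standard error 0.11, log2 scale) in the authors' deposited table, so a positive value means higher in the knockout. Implied means are the knockout and wild-type levels that give the deposited mean normalized count and fold change when both groups weigh the same. Each listed gene passed the authors' limits, an adjusted p-value below 0.05 and an absolute log2 fold change of about 0.58, so a gene outside the table was not shown to be unchanged. Gfap, the intermediate filament gene of astrocytes, had a mean normalized count of 75119 in the authors' deposited table and a log2 fold change of 0.66. Of 14 astrocyte markers 4 were higher, 3 lower and 7 not in the table, among them Gja1 and Slc1a3. Other cells were marked too. Of 20 macrophage and microglia markers 19 were listed, all higher in the knockout, with summed implied means of 187026 in knockout and 39894 in wild-type cultures. Meningeal and fibroblast markers gave 11 higher and 1 lower of 15, and oligodendrocyte markers 2 higher and 14 lower of 18. Schwann cell markers gave 1 higher and 9 lower of 12, neuron markers 0 and 10 of 16, Müller glia and retinal progenitor markers 0 and 8 of 13, and endothelial and pericyte markers 2 and 3 of 14. The part of these cells in the enzyme results was not tested, and in bulk RNA fewer cells of a type and less RNA per cell cannot be told apart. In the authors' deposited table, the log2 fold change was 13.26 for Ddx3y, 11.71 for Eif2s3y, 6.01 for Uty and 5.91 for Kdm5d, all Y-linked, and sex is not in the labels, so sex and genotype cannot be told apart.

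Of the 46 listed enzymes, 21 were higher and 25 lower in the knockout. About 16600 genes were tested by the authors, of which 21.8% were listed, 12% as higher and 9.84% as lower. The annotation holds 152 protein-coding genes with matching names, so the authors' deposited table listed 30.3% of them, against 16.1% of all annotated protein-coding genes, and how many of the other 106 were tested is unknown. Among the enzymes 45.7% were higher, against 54.9% of all listed genes. At a log2 fold change of 1 or more in size, 10 enzymes were higher and 12 lower. These were 22 of the 46 listed enzymes, against 2101 of all 3624 listed genes, or 12.7% of the tested genes. The median absolute log2 fold change was 0.98 for the enzymes and 1.14 for all listed genes. The enzymes' deposited standard errors ran from 0.09 to 1.20 with a median of 0.21, and mean normalized counts from 4.49 to 8953.

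The counts in each direction differed by the kind of chain. Glycosaminoglycan assembly here means the linker, chondroitin and dermatan, heparan and hyaluronan classes. Among its 14 listed enzymes, of 44 annotated, 2 were higher and 12 lower. Among the other 32 members, of 108 annotated, 19 were higher and 13 lower. The share higher was 14.3% in assembly and 59.4% outside it, against 54.9% of all listed genes. Keratan sulfate is also a glycosaminoglycan, but its class, shared with HNK-1 and other carbohydrate sulfotransferases, was counted outside assembly. So was B3gnt7, a higher gene that elongates keratan sulfate. With that class added to assembly, 2 were higher and 15 lower of 17 listed. All 8 listed sulfotransferases that the name rule takes in, of 30 annotated, fell. All 3 listed enzymes of N-glycan trimming and branching, of 15 annotated, rose. So did 4 of 5 listed sialyltransferases of glycoproteins, of 15 annotated. All 4 listed members of the B3gnt family, of 9 annotated, which add N-acetylglucosamine to growing chains, also rose. These groupings by chain, by sulfotransferase and by name family were made with the values in view, and the difference between them was given no test.

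**Figure D1:**
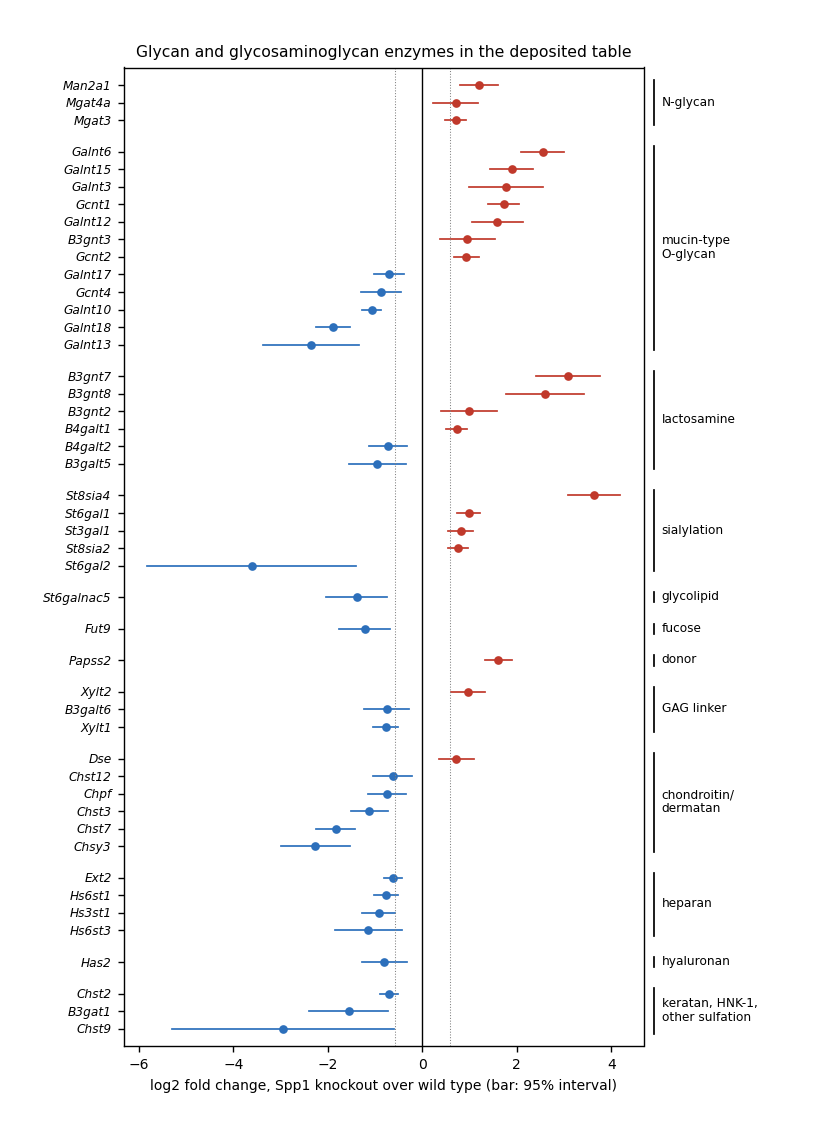
Log2 fold change of Spp1 knockout over wild type (x axis) for each of the 46 listed enzymes, grouped by the chain they build, with GAG for glycosaminoglycan. Points are the deposited values, bars the 95% intervals from the deposited standard error, and dotted lines the limit of 0.58; points to the right are higher in the knockout. Among the linker, chondroitin, heparan and hyaluronan classes only Xylt2 and Dse lie to the right, and the mucin-type class has points on both sides.

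Upstream sequences are shown for 4 enzymes, the 2 largest rises and the 2 largest falls among members with at least 100 mean normalized counts and a single start site in the RefSeq promoter table (GRCm38.p6), so that the letters beside these movements can be inspected. Each is the stretch before the RefSeq start that also lies before the gene's first base in GENCODE M21, in the gene's own direction, and capitals mark the Sp1 GC box GGGCGG on either strand. Bases soon after the RefSeq start were found in an annotated transcript for Galnt15, Galnt13 and Chst7, but not for St8sia4.
St8sia4 promoter, minus strand, chr1:95667595-95667844: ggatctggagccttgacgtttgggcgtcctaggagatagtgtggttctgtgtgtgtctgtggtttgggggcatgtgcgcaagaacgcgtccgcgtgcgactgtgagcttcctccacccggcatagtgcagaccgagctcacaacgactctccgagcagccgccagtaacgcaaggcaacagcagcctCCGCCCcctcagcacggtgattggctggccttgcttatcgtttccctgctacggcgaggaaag
Galnt15 promoter, plus strand, chr14:32028853-32028988: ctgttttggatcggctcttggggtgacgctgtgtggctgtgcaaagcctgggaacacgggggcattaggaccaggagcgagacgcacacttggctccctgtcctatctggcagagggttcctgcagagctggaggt
Galnt13 promoter, plus strand, chr2:54436137-54436316: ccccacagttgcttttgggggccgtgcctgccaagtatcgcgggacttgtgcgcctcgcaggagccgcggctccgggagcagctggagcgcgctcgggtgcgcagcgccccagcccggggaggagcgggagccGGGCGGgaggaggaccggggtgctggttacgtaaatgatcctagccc
Chst7 promoter, plus strand, chrX:20059320-20059559: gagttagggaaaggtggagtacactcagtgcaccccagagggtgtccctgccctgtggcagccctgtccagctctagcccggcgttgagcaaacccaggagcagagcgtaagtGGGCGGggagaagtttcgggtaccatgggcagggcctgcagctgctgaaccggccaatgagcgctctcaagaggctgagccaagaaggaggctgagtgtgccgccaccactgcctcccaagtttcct

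The GC content of these stretches was 60.4% for St8sia4, 60.3% for Galnt15, 71.7% for Galnt13 and 62.1% for Chst7. Promoters in the RefSeq table were found for 36 of the 46 enzymes, with 48 start sites. Over the 250 bases before a start the median GC content was 60.0% at 27 starts of enzymes higher in the knockout and 65.6% at 21 starts of lower ones, against 52.4% over all 32851 promoters. The GC box was in 55.6% of the starts of higher enzymes and 47.6% of the starts of lower ones, against 32.7% of all promoters. The PU.1 motif GAGGAAGT, searched on both strands like the others, was in 1 of 27 starts of higher and 0 of 21 starts of lower enzymes, against 2.44% of all promoters. The AP-1 motif TGANTCA was in 3 of 27 and 1 of 21, against 6.75%. The SOX motif AACAAT was in 1 of 27 and 1 of 21, against 9.42%. The TATA box TATAAA was in 1 of 27 and 0 of 21, against 12.4%. The cyclic AMP response element TGACGTCA was in 0 of 27 and 1 of 21, against 1.55%, and the MYC E-box CACGTG in 1 of 27 and 2 of 21, against 6.02%. Some enzymes have several starts in this table, none of the 7 motifs contains another, and a match is a run of letters only.

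All 3 listed enzymes of the N-glycan trimming and branching class were higher, of 15 annotated, while Mogs, a trimming glucosidase outside the name rule, is given below and was lower. Man2a1, the Golgi mannosidase that trims the core before complex branches are added, rose by 1.20 on the log2 scale (deposited standard error 0.20) per the authors' deposited table, with implied means of 4267 in knockout and 1858 in wild-type cultures. Its 2.30-fold higher level had a 95% interval of 1.74 to 3.02. Mgat3, which adds the bisecting N-acetylglucosamine, rose by 0.70 (0.12) and Mgat4a, a branching transferase, by 0.71 (0.24) in the authors' deposited table. The other 12 annotated genes of this class, among them Mgat1, Mgat2 and Mgat5, were not in the table.

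Mucin-type O-glycan enzymes moved in both directions, with 7 higher and 5 lower of 24 annotated genes. The Galnt transferases, which attach the first sugar, split evenly into 4 higher and 4 lower. Galnt6 rose by 2.54 (deposited standard error 0.24), from the authors' deposited table, with implied means of 494 in knockout and 84.7 in wild-type cultures. Galnt15, whose upstream sequence is printed above, had implied means of 1067 in knockout and 288 in wild-type cultures and rose by 1.89 (0.24) in the authors' deposited table. Galnt3, which also glycosylates the phosphate hormone FGF23, rose by 1.76 (0.40) and Galnt12 by 1.59 (0.28) in the authors' deposited table. Implied means were 88.8 in knockout and 26.2 in wild-type cultures for Galnt3, and 173 in knockout and 57.4 in wild-type cultures for Galnt12.

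Per kilobase of transcript, the falling genes Galnt10 and Galnt17 had implied means of 288 and 270 in knockout and 604 and 441 in wild-type cultures, above those of Galnt15, the highest of the rising genes, at 169 in knockout and 45.6 in wild-type cultures. Galnt18 had 120 per kilobase in knockout cultures, below Galnt15 and Galnt6, and 445 in wild-type cultures, above both. Galnt10 had implied means of 1358 in knockout and 2849 in wild-type cultures and fell by 1.07 (deposited standard error 0.10) in the authors' deposited table. Galnt18 had implied means of 308 in knockout and 1146 in wild-type cultures and fell by 1.90 (0.18) in the authors' deposited table, a 3.72-fold lower level (95% interval 2.90 to 4.78). Galnt13, an isoform known from neurons, fell by 2.36 (0.52), with implied means of 45.4 in knockout and 234 in wild-type cultures worked out from the authors' deposited table. Galnt17 fell by 0.71 (0.16) per the authors' deposited table, with implied means of 2173 in knockout and 3548 in wild-type cultures. The implied means of the 8 genes summed to 5707 in knockout and 8234 in wild-type cultures, so the sum was lower although as many genes rose as fell. The neuron markers, 10 of 10 listed lower, moved beside Galnt13, and their part was not tested.

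The other listed enzymes of the mucin-type class, which branch or extend chains, were higher except Gcnt4. Gcnt3, Gcnt7 and B3gnt6 of this class were not listed. Gcnt1, which makes the core 2 branch, rose by 1.72 (deposited standard error 0.17) per the authors' deposited table, with implied means of 1264 in knockout and 384 in wild-type cultures. Gcnt2, which branches lactosamine chains, rose by 0.93 (0.14) and B3gnt3, which extends the core 1 O-glycan, by 0.95 (0.30) in the authors' deposited table. Gcnt4, a relative of Gcnt1, fell by 0.87 (0.22) in the authors' deposited table.

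**Figure D2:**
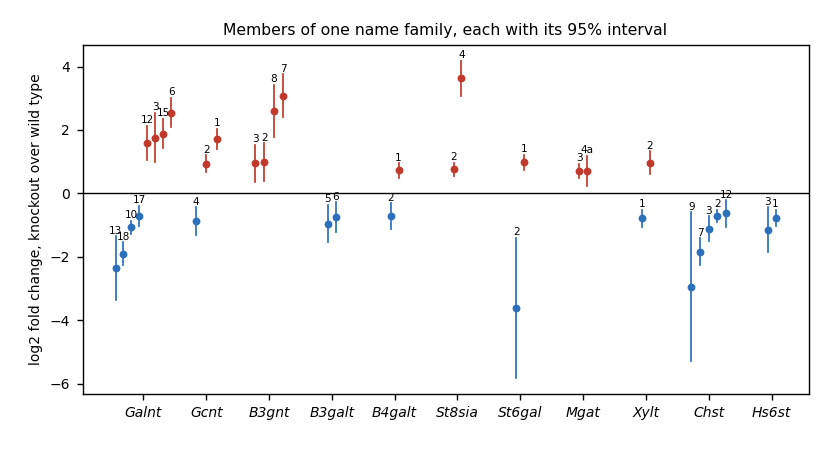
Log2 fold change of Spp1 knockout over wild type (y axis) for listed enzymes of 11 name families (x axis), with the number of each isoform above its 95% interval. The 4 B3gnt genes lie above 0 and the 5 Chst genes below it, while Galnt, Gcnt, B4galt, St6gal and Xylt hold isoforms on both sides.

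Lactosamine enzymes gave 4 higher and 2 lower of 16 annotated genes. B3gnt7, which elongates keratan sulfate chains, rose by 3.08 (deposited standard error 0.35) per the authors' deposited table, with implied means of 122 in knockout and 14.4 in wild-type cultures. B3gnt8, a partner of B3gnt2 in lactosamine extension, rose by 2.60 (0.42) per the authors' deposited table, with implied means of 164 in knockout and 27.0 in wild-type cultures. B3gnt2 itself rose by 0.98 (0.30) in the authors' deposited table. The galactosyltransferases that alternate with these enzymes differed in direction: B4galt1 rose by 0.72 (0.11), with implied means of 2625 in knockout and 1591 in wild-type cultures, and B4galt2 fell by 0.72 (0.20), in the authors' deposited table. B3galt5, which adds galactose in another linkage, fell by 0.95 (0.30) in the authors' deposited table.

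Sialyltransferases of glycoproteins were mostly higher. St8sia4, which builds polysialic acid on the neural cell adhesion molecule, had the largest rise of all 46 enzymes, 3.63 on the log2 scale (deposited standard error 0.28) in the authors' deposited table. Its implied means were 493 in knockout and 40.0 in wild-type cultures, a 12.3-fold higher level (95% interval 8.41 to 18.1). St8sia2, the other polysialyltransferase, rose by 0.76 (0.11) per the authors' deposited table, with implied means of 1732 in knockout and 1024 in wild-type cultures. Divided by transcript length, St8sia2 had 257 and St8sia4 26.6 mean normalized counts per kilobase, so St8sia2 stood higher over all samples despite its smaller change. St6gal1, which caps N-glycans with sialic acid, rose by 0.98 (0.12) per the authors' deposited table, with implied means of 3243 in knockout and 1644 in wild-type cultures. St3gal1, which caps core 1 O-glycans, rose by 0.81 (0.13) in the authors' deposited table. The exception was St6gal2, a relative of St6gal1, which fell by 3.61 (1.13) per the authors' deposited table at a low level, with implied means of 1.33 in knockout and 16.2 in wild-type cultures. The donor genes of sialic acid, Gne and Cmas, were not in the table. Beside the rises of St8sia4 and St6gal1, macrophage markers (19 of 19 listed) were also higher, and their part was not tested.

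The glycolipid and fucose classes of the name rule had 1 listed gene each, and glycolipid enzymes outside the rule, such as A4galt and Ugt8a, are given below. St6galnac5, which adds sialic acid to gangliosides, fell by 1.39 (deposited standard error 0.33) and Fut9, which makes the Lewis X epitope of neural progenitors, by 1.22 (0.28) in the authors' deposited table. The implied means of Fut9 were 160 in knockout and 371 in wild-type cultures, and those of St6galnac5 were 35.5 in knockout and 93.4 in wild-type cultures. The other 10 annotated enzymes of the glycolipid class, among them Ugcg, St3gal5 and St8sia1, and the other 7 fucosyltransferases were not in the table, nor was any of the 5 O-mannose and O-xylose enzymes.

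**Figure D3:**
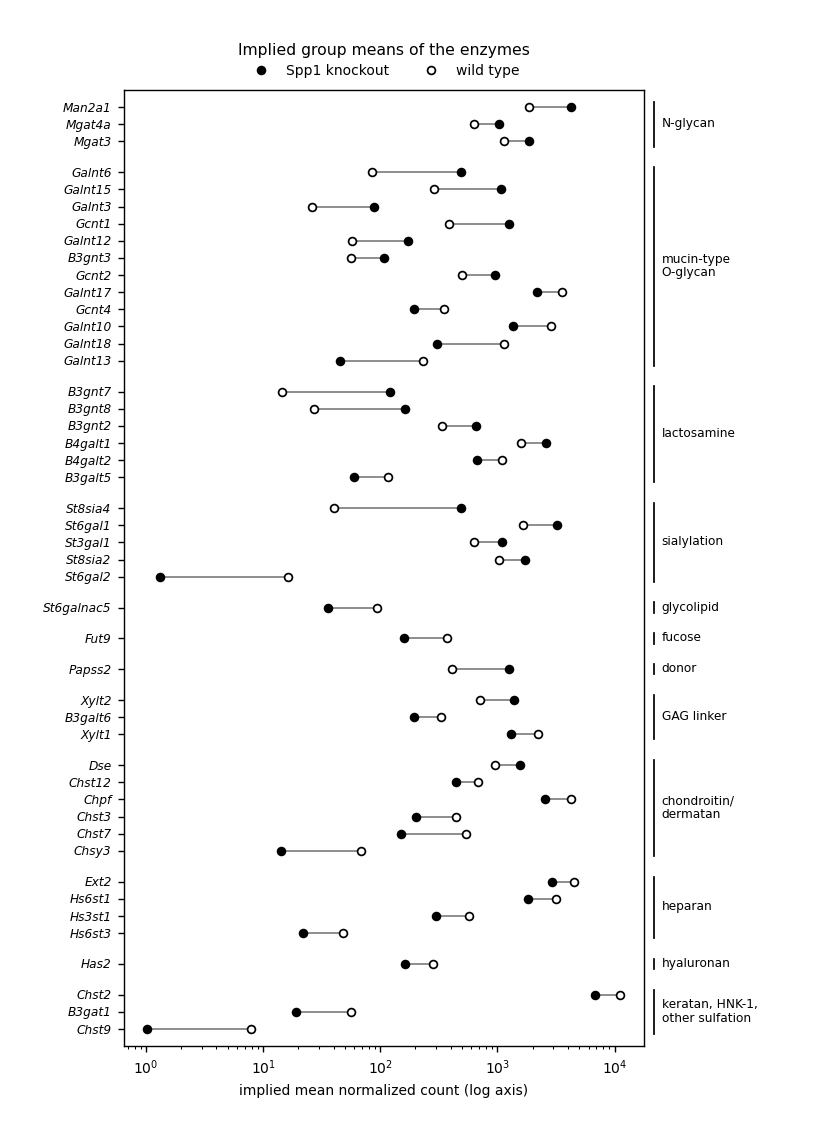
Implied mean normalized counts on a log axis (x axis) of the 46 enzymes in Spp1 knockout (filled) and wild-type (open) cultures, by class; GAG stands for glycosaminoglycan. Values are worked out from the deposited mean and fold change, carry no replicate spread, and are not divided by length; Chst2 lies farthest right at 6796 in knockout and 11110 in wild-type cultures, and Chst9 and St6gal2 farthest left.

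Of the 14 listed enzymes of glycosaminoglycan assembly, 12 had lower RNA in the knockout, while 30 of the 44 annotated were not listed. The chains themselves were not measured here. The summed implied means of the 14 listed enzymes were 13067 in knockout and 18818 in wild-type cultures. At the linker, the xylosyltransferases that start every chain moved apart. Xylt1 fell by 0.78 (deposited standard error 0.14), with implied means of 1299 in knockout and 2230 in wild-type cultures, from the authors' deposited table. Xylt2 rose by 0.97 (0.19), with implied means of 1392 in knockout and 713 in wild-type cultures, from the authors' deposited table. The sum over both genes, not divided by transcript length, was 2691 in knockout and 2943 in wild-type cultures. Per kilobase of transcript, implied means were 144 in knockout and 247 in wild-type cultures for Xylt1. For Xylt2 they were 404 in knockout and 207 in wild-type cultures, so on that scale the sum was higher in the knockout. B3galt6, which adds a galactose of the linker, fell by 0.75 (0.24) in the authors' deposited table.

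Chondroitin and dermatan sulfate enzymes gave 1 higher and 5 lower of 16 annotated genes. Chst7 and Chst3, which sulfate the N-acetylgalactosamine of chondroitin at the same position, fell by 1.83 (deposited standard error 0.21) and 1.12 (0.20) in the authors' deposited table. Implied means of Chst7 were 151 in knockout and 539 in wild-type cultures, a 3.56-fold lower level (95% interval 2.67 to 4.76), and those of Chst3 were 203 in knockout and 441 in wild-type cultures. Chst7 is the only listed enzyme on the X chromosome, and sex and genotype cannot be told apart. Chst12, which sulfates another position, fell by 0.63 (0.21) in the authors' deposited table. Chsy3, a chondroitin synthase, fell by 2.27 (0.37) per the authors' deposited table, with implied means of 14.1 in knockout and 68.0 in wild-type cultures. Chpf, the factor that chondroitin polymerization needs, had 1115 mean normalized counts per kilobase over all samples, against 11.5 for Chsy3. Its implied means were 2543 in knockout and 4290 in wild-type cultures, and it fell by 0.75 (0.21) in the authors' deposited table. Dse, the epimerase that turns chondroitin into dermatan sulfate, was the exception and rose by 0.71 (0.19) per the authors' deposited table, with implied means of 1563 in knockout and 953 in wild-type cultures.

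Heparan sulfate enzymes fell in 4 of 4 listed cases out of 20 annotated genes. Ext2, a subunit of the heparan polymerase, fell by 0.62 (deposited standard error 0.09) in the authors' deposited table, the smallest change of all 46 enzymes, with implied means of 2945 in knockout and 4523 in wild-type cultures. Its partner Ext1 was not in the table. Hs6st1 and Hs6st3, sulfotransferases of the same reaction, fell by 0.78 (0.13) and 1.14 (0.36) per the authors' deposited table, with implied means of 1836 in knockout and 3146 in wild-type cultures for Hs6st1. Those of Hs6st3 were 22.0 in knockout and 48.5 in wild-type cultures. Hs3st1, which completes the antithrombin-binding site of heparin, fell by 0.93 (0.17) per the authors' deposited table, with implied means of 302 in knockout and 574 in wild-type cultures. None of the 4 Ndst genes, which start heparan sulfation, was in the table. Has2, a hyaluronan synthase, fell by 0.80 (0.24) per the authors' deposited table, with implied means of 163 in knockout and 284 in wild-type cultures.

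The 3 listed genes of the keratan sulfate, HNK-1 and other carbohydrate sulfotransferase class, of 9 annotated, were lower, whereas B3gnt7, described above with the lactosamine enzymes, was higher. Chst2, which sulfates N-acetylglucosamine in keratan sulfate and selectin ligands, had the highest mean normalized count of all 46 enzymes and fell by 0.71 (deposited standard error 0.10) in the authors' deposited table. Its implied means were 6796 in knockout and 11110 in wild-type cultures. Per kilobase of transcript, Ext2, Chst2 and Chpf had the highest levels of the 46, at 1301, 1222 and 1115 mean normalized counts per kilobase over all samples, and their implied means per kilobase were also the highest in knockout and in wild-type cultures taken alone. B3gat1, which makes the HNK-1 epitope of neural crest and myelinating cells, fell by 1.56 (0.43) per the authors' deposited table, with implied means of 19.1 in knockout and 56.2 in wild-type cultures. Chst9, a sulfotransferase of terminal N-acetylgalactosamine, fell by 2.95 (1.20) in the authors' deposited table, with implied means of 1.03 in knockout and 7.96 in wild-type cultures, and its adjusted p of 0.046 from DESeq2's test was the largest of the 46. Oligodendrocyte and Schwann cell markers, 14 of 16 and 9 of 10 listed lower, moved beside these falls, and their part was not tested.

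Papss2, which makes the activated sulfate that sulfotransferases use, rose by 1.60 (deposited standard error 0.15) per the authors' deposited table, with implied means of 1254 in knockout and 413 in wild-type cultures, a 3.04-fold higher level (95% interval 2.49 to 3.70). Of 38 other annotated genes of sugar-nucleotide and sulfate supply 3 were higher and 1 lower, a listed share of 10.5% against 16.1% of all annotated protein-coding genes. Papss1, the other enzyme that makes activated sulfate, and Slc35b2 and Slc35b3, which carry activated sulfate into the Golgi, were not in the table. The sulfate transporters Slc13a4 and Slc26a2 rose by 3.80 (0.33) and 0.69 (0.21) in the authors' deposited table. Uap1l1, a relative of the enzyme that makes UDP-N-acetylglucosamine, rose by 1.02 (0.11) and Pmm1, a phosphomannomutase, fell by 0.80 (0.15) in the authors' deposited table. Summed over the 8 listed sulfotransferases, implied means were 9750 in knockout and 16547 in wild-type cultures, of which Chst2 alone gave 6796 and 11110. As all 8 were lower, this sum could only be lower, and it leaves out the 22 annotated sulfotransferases that were not listed. Meningeal and fibroblast markers, 11 of 12 listed higher, moved beside the rises of Papss2 and Slc13a4, and their part was not tested.

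**Figure D4:**
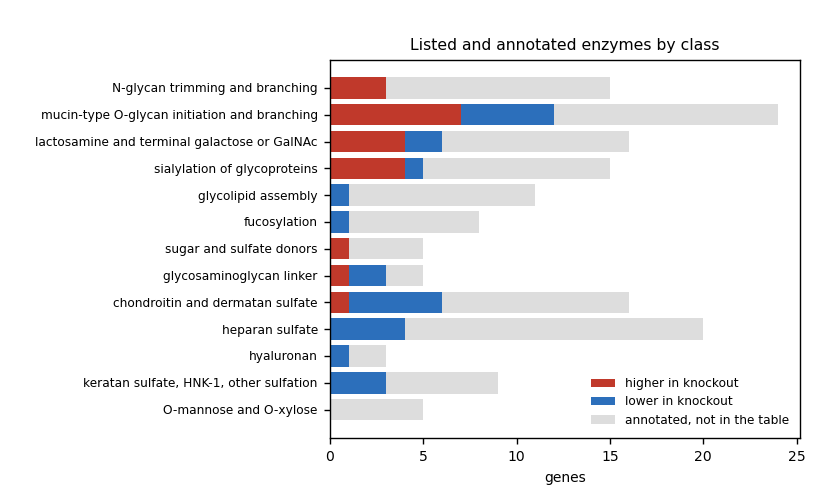
Number of genes (x axis) in each of 13 enzyme classes, split into listed higher in the knockout, listed lower, and annotated but not in the table. The 14 listed genes of linker, chondroitin and dermatan, heparan and hyaluronan synthesis are 2 higher and 12 lower, and the mucin-type class has the most listed genes, 12 of 24.

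Genes around the members were counted from 7 lists. For comparison, 16.1% of all annotated protein-coding genes were listed, and 54.9% of all listed genes were higher. Proteoglycan core proteins, which carry the chains, gave 8 higher and 14 lower of 46, with a median log2 fold change of -0.79. The small leucine-rich proteoglycan genes Dcn and Epyc rose by 2.87 (deposited standard error 0.16) and 2.12 (0.15), Thbd, the thrombomodulin gene, by 1.96 (0.13), and Cspg4, the NG2 proteoglycan, fell by 2.33 (0.14) per the authors' deposited table. Summed implied means of the 22 listed core proteins were 79445 in knockout and 113122 in wild-type cultures. Dcn and Lum are also on the meningeal list and Cspg4 on the oligodendrocyte and the endothelial and pericyte lists.

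All 16 listed lysosomal glycan and glycosaminoglycan hydrolases of 33 were higher, against 54.9% of all listed genes. Of the 33, 48.5% were listed, against 16.1% of all annotated protein-coding genes. The median log2 fold change of the 16 was 0.75, against 1.31 over all genes listed as higher. Among the enzymes above, the median was -0.78 for the 14 of glycosaminoglycan assembly and 0.74 for the other 32, and no difference between these groups was tested. Gla, an alpha-galactosidase, rose by 1.59 (deposited standard error 0.11), Hgsnat, which acetylates heparan sulfate for its breakdown, by 1.44 (0.12), Man2b1, the lysosomal mannosidase, by 1.28 (0.12) and Fuca2, a fucosidase, by 0.89 (0.11) in the authors' deposited table. Outside the lysosome, 7 genes of glycosaminoglycan remodelling and hyaluronan turnover were higher and 5 lower of 19 annotated. Hpse, the heparanase that cuts heparan sulfate, rose by 2.99 (0.25), and Itih2 and Itih5, whose products belong to the family that binds hyaluronan, by 2.66 (0.13) and 1.68 (0.14), in the authors' deposited table. Stab1, a scavenger receptor whose relative Stab2 takes up hyaluronan, rose by 1.67 (0.14) in the authors' deposited table. The hyaluronan link protein genes Hapln1, Hapln2 and Hapln4 stood at -1.70 (0.36), -6.45 (1.49) and -2.35 (0.41) in the authors' deposited table. Markers of macrophages, 19 of 19 listed higher, moved beside the hydrolases and Stab1, and their part was not tested.

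Glycosyltransferases and some other glycan enzymes whose names fell outside the rule gave 5 higher and 8 lower of 48 annotated genes. The lower ones included the sulfotransferases Gal3st1 at -1.75 (deposited standard error 0.47) and Gal3st3 at -0.97 (0.19) in the authors' deposited table. Gal3st2, another, stood at -5.64 (1.47) with a mean normalized count of only 5.03, and Gal3st4 was not in the table. Ggta1, which makes the alpha-galactose epitope of mice, rose by 1.14 (deposited standard error 0.10), A4galt, the globotriose synthase, by 1.50 (0.20) and Tmtc1, an O-mannosyltransferase, by 1.04 (0.13) in the authors' deposited table. Ugt8a, which makes the galactolipid of myelin, fell by 5.24 (0.57) in the authors' deposited table and is also an oligodendrocyte marker. Of 34 genes that build and transfer the N-glycan precursor, 1 was listed, Mogs, the glucosidase that starts trimming, which fell by 0.69 (0.24) per the authors' deposited table.

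**Figure D5:**
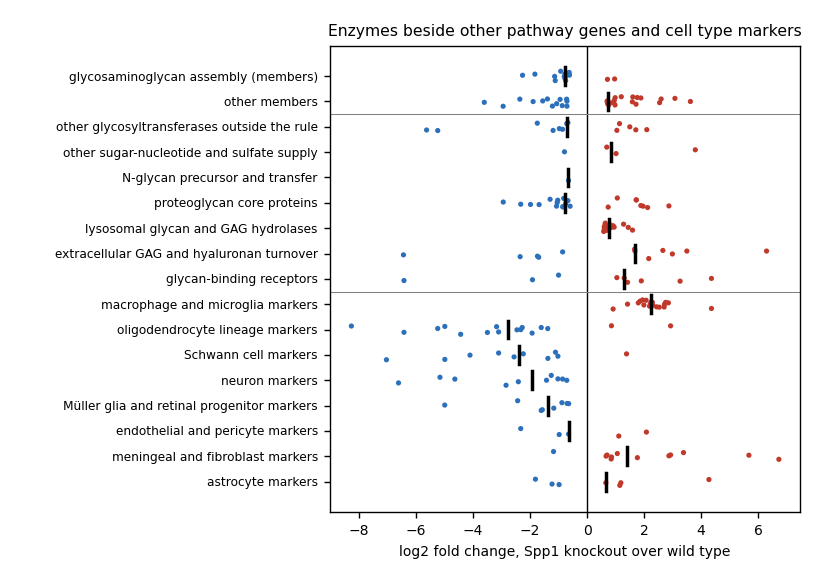
Log2 fold change of Spp1 knockout over wild type (x axis) of listed genes, 1 point each, in the enzymes (top), 7 lists of other pathway genes (middle) and 8 lists of cell type markers (bottom); GAG stands for glycosaminoglycan and black bars are medians. Points of assembly enzymes lie mostly left of 0 and those of lysosomal hydrolases all right of it, as do the macrophage markers, while oligodendrocyte, Schwann cell, neuron and Müller glia markers lie mostly left.

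The enzymes were spread over 18 chromosomes, with at most 5 on any of them. On chromosome 5, which carries Spp1 at chr5:104435118-104441050 in GRCm38, lie Hs3st1, Galnt17 and Chst12, all lower, and the nearest, Galnt17, is 26.4 Mb from Spp1. St8sia4 lies at chr1:95587682-95667571 on the minus strand and Papss2 at chr19:32595790-32667187 on the plus strand. Chst7 lies at chrX:20059560-20097521 on the plus strand and Galnt18 at chr7:111471661-111779977 on the minus strand.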

How the data were processed

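Primary astrocyte cultures of 4 Spp1 knockout and 4 wild-type samples were profiled by RNA sequencing. CASAVA 1.8, STAR 2.7, DESeq2 1.30.1 and the build GRCm38 are in the submitters' processing notes, without roles; how reads were counted, with which annotation, is not given in the sources used. Per the file headers, the values the authors deposited for 3624 genes are a mean normalized count (a signal pooled over all samples), a log2 fold change, raw and adjusted p-values, and the standard error and Wald statistic, both held as score columns. With 0 columns of per-sample values deposited, per-sample depth is unknown and no count model could be fitted; the authors' adjusted p-values stand in for the planned edgeR fit. All deposited adjusted p-values were at most 0.0499 and all absolute log2 fold changes at least 0.58.

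From these values the implied group means (equal group sizes assumed) and 95% intervals (normal quantile times the deposited standard error) were computed with Python 3.11.15, pandas 2.3.3 and scipy 1.17.1. The number of genes tested was estimated from adjusted and raw p together in the 20 top-ranked genes whose p was above 0, a step tested on simulated data. Members were matched by gene symbol to GENCODE M21 (GRCm38), and per-kilobase levels used the longest protein-coding transcript. Every member found is reported, in full where the log2 fold change was 1 or more in size or the mean was among the 10 highest, and up to 4 genes per other list were named by smallest adjusted p-value; genes named beyond that were chosen after their values were seen. Members, classes and lists were chosen with earlier results of these data known. Alternatives used stricter limits on fold change, adjusted p, mean count and interval, and a wider member list.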

Additional observations from a re-analysis of the deposited data

How the results depend on the processing

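Stricter limits reduced the counts of members, and glycosaminoglycan assembly kept more lower than higher genes under each. That class was formed with the values in view and held 2 higher and 12 lower genes. Subsets of it could hardly turn the balance, so the limits are no check on its direction. The deposited 21 higher and 25 lower became 10 and 12 among genes changed by 1 or more on the log2 scale, 17 and 15 at an adjusted p of at most 0.001, 17 and 18 at a mean normalized count of at least 100, and 13 and 12 where the 95% interval lay beyond 0.58. The median over all members, -0.67, changed sign where the higher members became the majority, and it jumped because the table holds no values between its fold-change limits. It was 0.71 at an adjusted p of at most 0.001, 0.93 with the interval beyond 0.58 and 0.70 at a mean of at least 50 (an alternative chosen after seeing the data). Over all listed genes the median was 0.66 as deposited, and 0.80, 1.25 and 0.66 at these 3 limits in the same order. A mean weighted by the inverse squared standard error was 0.053 for the members and 0.22 for all listed genes. No direction is given for the members as a whole. The share higher was 14.3% in glycosaminoglycan assembly and 0% among genes changed by 1 or more on the log2 scale. It was 12.5% at an adjusted p of at most 0.001 and 16.7% at a mean of at least 100. With the interval beyond 0.58 it was 20%, with 1 higher and 4 lower. For chondroitin and dermatan enzymes it was 16.7%, and 0% at a log2 change of 1 or more and at an adjusted p of at most 0.001. With the interval beyond 0.58 it was also 0%. For the linker it was 33.3%, and 100% with the interval beyond 0.58, where Xylt2 alone was kept. For lactosamine enzymes it was 66.7%, and 100% under the same 3 limits as chondroitin. For sialylation of glycoproteins it was 80%, and 100% at an adjusted p of at most 0.001 or a mean of at least 100, which drop St6gal2. It fell to 50% (1 higher, 1 lower) among genes changed by 1 or more, and to 66.7% with the interval beyond 0.58. For all sialyltransferases it was 66.7%, with 80% at an adjusted p of at most 0.001 and 100% at a mean of at least 100. It fell to 33.3% (1 higher, 2 lower) among genes changed by 1 or more, and to 50% with the interval beyond 0.58. All 8 listed sulfotransferases were lower as deposited, so the 4 to 6 genes kept under each limit could only be lower. The limits are therefore no check on that direction. No paired analysis was possible because the deposited table has no per-sample values, and samples could not be left out in turn for the same reason. The depth of each sample is unknown, so limits of detection could not be set; 5 members had a mean normalized count under 50.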

Other observations

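Receptors that read glycans were also listed, with 6 higher and 3 lower of 27 annotated genes. The listed share was 33.3%, against 16.1% of all annotated protein-coding genes, and 66.7% of those listed were higher, against 54.9% of all listed genes. Mrc1, the mannose receptor, and Siglec1, a sialic acid receptor of macrophages, rose by 4.36 (deposited standard error 0.13) and 3.26 (0.20) in the authors' deposited table. Lgals9, a galectin that binds galactose-containing chains, rose by 1.3 (0.15) in the authors' deposited table, and so did Lgals3, by 1.04 (0.20). Lgals1, another galectin, had a mean normalized count of 11258 and fell by 1.00 (0.21) in the authors' deposited table. Mag, a sialic acid receptor of myelin, fell by 6.43 (0.53) in the authors' deposited table. Mrc1 is also on the macrophage list and Mag on the oligodendrocyte list, and the part of those cells was not tested.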
